A study of Mus musculus with 7 samples.

Results

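Adipogenic transcription factors are the DNA-binding proteins that turn a mesenchymal progenitor into a fat cell. The 7 examined here were Cebpa, Cebpb, Cebpd, Ebf1, Ebf2, Zfp423 and Klf15. They were found by matching the accession of each array probe to these gene symbols, which gave 9 probes of 55681 and 7 genes of the 21154 genes named on the array. The genes were picked with their differences between the groups already known. Their levels and differences are therefore given as a description, without a test. In the textbook sequence of adipogenesis, C/EBPβ and C/EBPδ are switched on early and induce C/EBPα and PPARγ, which hold each other active and drive the genes of the mature adipocyte. EBF1, EBF2 and the zinc finger protein ZFP423 act around commitment of the progenitor, and KLF15 joins in the late phase. C/EBPα, C/EBPβ and KLF15 are also abundant in liver, where they serve gluconeogenesis, the acute-phase response and amino acid breakdown.

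The study, by its title, asked what β-catenin activation in the dermal sheath, the mesenchymal layer around the hair follicle, does to hair growth and skin fibrosis. RNA came from dorsal skin cells of mice at postnatal day 15 that the labels describe as YFP-positive and as lacking CD34, alkaline phosphatase (ALP) and integrin α8 on sorting. There were 3 control-labelled arrays from 4 mice, with array 3 pooling 2 of them. The other 4 arrays carry the label cΔex3, the β-catenin activation group, and come from 6 mice, with arrays 2 and 3 pooling 2 each. Both groups share the YFP label and the sort. The driver of the reporter and of the β-catenin allele, the mouse strain and the sex are not given in the sources used here.

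Each RNA was hybridised to a single 1-colour array, and the number of arrays limits the precision. Levels are log2 of the scanner's processed signal minus the array's 75th percentile, so that 0 is a signal at that percentile. A difference is always cΔex3-labelled minus control-labelled, in log2 units. The 75th percentile itself was 756 to 907 on the control-labelled arrays and 1348 to 2160 on the cΔex3-labelled arrays, and 0 spots were saturated. Over the genes tested, control-labelled arrays correlated with each other at 0.979 to 0.984, cΔex3-labelled arrays at 0.917 to 0.972, and arrays of different groups at 0.748 to 0.809. A gene is called when limma's Benjamini-Hochberg adjusted p over 18030 genes is under 0.05.

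The tissue labels were set against marker genes first, and the markers put the labels themselves in doubt: hepatocyte transcripts led the control-labelled arrays and adipocyte transcripts the cΔex3-labelled arrays, although all are labelled dermal sheath cells. Every difference below is one between arrays so labelled, and whether the labels describe the hybridised RNA is not known. The level of 14 hepatocyte markers, summed on the linear scale relative to each array's 75th percentile, was 4223 to 5518 on the control-labelled arrays and 13.3 to 36.4 on the cΔex3-labelled arrays, and 14 of 14 were lower in the latter, where Cyp8b1 was not well above background on any array. The sum of 11 mature adipocyte markers was 13.2 to 89.0 against 935 to 2026, and 11 of 11 were higher, although Slc7a10 was not well above background on any control-labelled array. Adipocyte progenitor markers summed to 18.1 to 37.1 against 76.0 to 155, with 7 of 10 higher and 1 lower, and Fgf10 not well above background on the control-labelled arrays. Dermal sheath and smooth muscle markers summed to 24.4 to 35.8 against 97.1 to 214, with 7 of 9 higher and Col11a1 not well above background on the control-labelled arrays. Mesothelium markers were higher for 6 of 6 (0.398 to 1.46 against 14.6 to 40.5). The sums of macrophage markers overlapped (95.8 to 136 against 72.5 to 118), with 2 of 9 higher and 2 lower. The largest differences each way, named after their values were seen, were those of Clec4f (-10.88) and Itgam (2.12). Clec4f was well above background on 2 of the 4 cΔex3-labelled arrays. Cd34, whose protein the sort selected against, was 4.84 higher in the cΔex3-labelled group (limma adjusted p = 4.49e-05). The genes of the other proteins that the sort selected against leaned the other way and were not past the threshold. They were Alpl (-1.27, limma adjusted p = 0.308) and Itga8 (-0.77, limma adjusted p = 0.323). The β-catenin gene Ctnnb1 showed a difference of -0.02 (SE 0.14, limma adjusted p = 0.902). Where its probe lies relative to the altered part of the gene was not examined, so that it does not check the labels. The β-catenin target Axin2 was 1.14 (SE 0.25) higher (limma adjusted p = 0.00766) and Lef1 was 2.14 (SE 0.43) higher (limma adjusted p = 0.00556). In RNA of mixed cells, fewer cells of a type and less RNA per cell cannot be told apart, and this holds for every difference below.

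**Figure D1:**
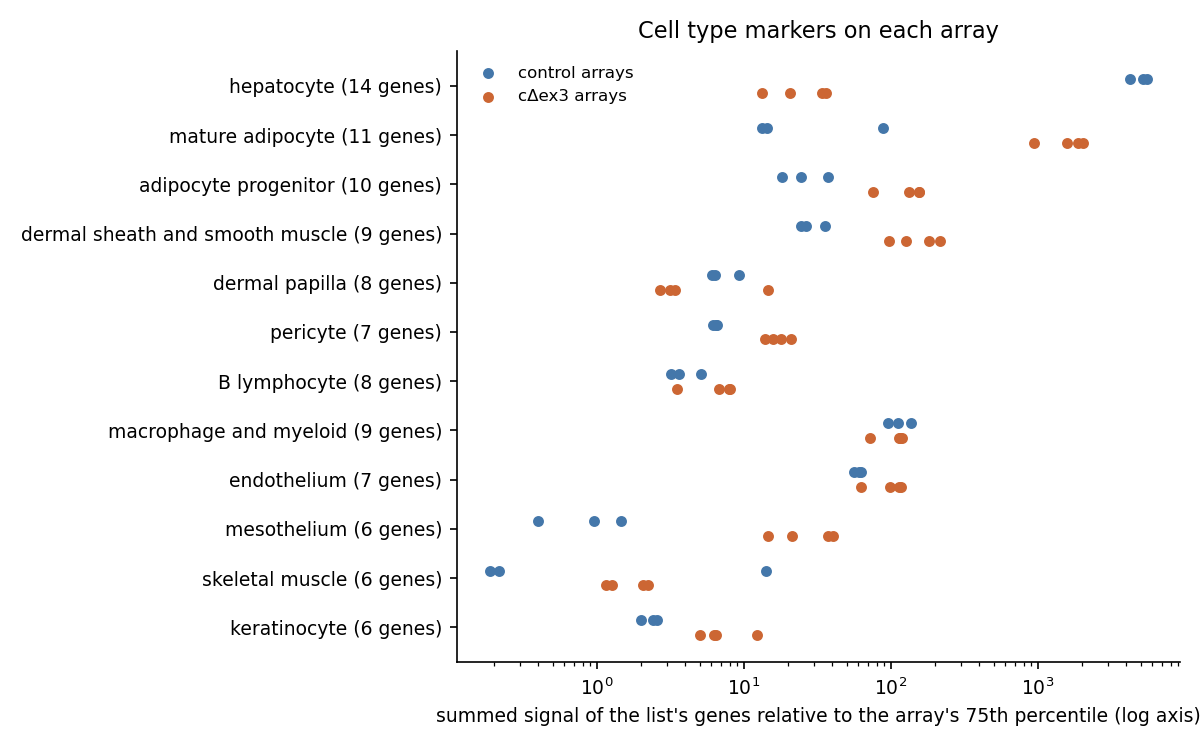
Summed level of each list of cell type markers on each array (log axis, linear signal relative to the array's 75th percentile; blue points are the 3 control-labelled arrays, orange points the 4 cΔex3-labelled arrays). The hepatocyte sums lie at 4223 or above on every control-labelled array and at 36.4 or below on the others, and the mature adipocyte sums lie the other way round, with control-labelled array 3 above the other controls and cΔex3-labelled array 4 below the other arrays of its group.

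The promoters of the factors that were lower together and higher together are shown as RefSeq sequence on GRCm38.p6, the 250 bases upstream of the start site, 5′ to 3′ on the gene's own strand. The RefSeq table held 5 of the 7 factors, with 2 start sites each for Ebf1 and Zfp423. Capitals mark every match, on either strand, to the strings searched: C/EBP (TTGCGNAA), EBF (CCCNNGGGA), GC box of KLF and Sp factors (GGGCGG), TCF/LEF (CTTTGA), NF-Y box (CCAAT), TBP box (TATAAA), CRE (TGACGTCA), E-box of USF (CACGTG) and the glucocorticoid response element (ACANNNTGT). Cebpb lies at chr2:167688665-167688914 on the plus strand, Klf15 at chr6:90462326-90462575 on the plus strand, the first Ebf1 site at chr11:44617850-44618099 on the plus strand and the first Zfp423 site at chr8:87959596-87959845 on the minus strand.
Cebpb: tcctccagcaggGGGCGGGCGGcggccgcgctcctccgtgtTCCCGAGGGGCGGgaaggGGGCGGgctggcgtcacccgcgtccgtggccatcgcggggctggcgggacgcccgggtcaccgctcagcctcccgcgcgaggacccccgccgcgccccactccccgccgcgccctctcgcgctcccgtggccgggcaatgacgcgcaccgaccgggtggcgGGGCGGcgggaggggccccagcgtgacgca
Klf15: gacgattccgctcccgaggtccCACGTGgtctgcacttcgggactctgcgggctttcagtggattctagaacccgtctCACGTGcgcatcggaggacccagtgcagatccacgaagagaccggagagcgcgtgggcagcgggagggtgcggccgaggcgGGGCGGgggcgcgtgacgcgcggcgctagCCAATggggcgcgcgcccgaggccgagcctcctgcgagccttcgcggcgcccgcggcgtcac
Ebf1: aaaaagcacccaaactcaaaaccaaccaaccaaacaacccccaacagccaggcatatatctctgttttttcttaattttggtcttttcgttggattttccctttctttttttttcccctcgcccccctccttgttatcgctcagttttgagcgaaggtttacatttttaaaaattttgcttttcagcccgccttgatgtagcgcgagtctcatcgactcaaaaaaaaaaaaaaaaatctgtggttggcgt
Zfp423: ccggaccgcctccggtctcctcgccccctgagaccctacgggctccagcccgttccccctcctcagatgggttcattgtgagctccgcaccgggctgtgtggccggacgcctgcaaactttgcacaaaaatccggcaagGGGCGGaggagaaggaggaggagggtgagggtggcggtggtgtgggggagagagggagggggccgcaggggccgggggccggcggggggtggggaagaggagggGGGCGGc

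The windows of the lower pair were rich in G and C: 81.6% for Cebpb and 72.0% for Klf15, against a median of 52.4% over all 32851 windows. Cebpb held 5 GC boxes, a string that 32.7% of all windows hold at least once. It also held the EBF string, which 5.6% of windows hold, on the reverse strand from -209 to -201, sharing its last bases with the GC box at -202. Klf15 held 2 copies of CACGTG, at -228 and -172, against 6.02% of all windows with a copy, and the NF-Y box at -62. A further GC box of Klf15 lay at -91.

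The first Ebf1 window was the poorest in G and C of those found, at 40.0%, and neither Ebf1 window held any of the strings. The first Zfp423 window (71.6% G and C) held 2 GC boxes and the second (64.8%) held 1. The window of Cebpa (66.4%) held the TBP box, better known as the TATA box, from -30 to -25, a string found in 12.4% of all windows. None of the 7 windows held the C/EBP, TCF/LEF, CRE or glucocorticoid response strings, which occur in 0.67%, 13.8%, 1.55% and 5.84% of all windows. A match is only a run of letters in this window, and a missing match says nothing about binding of the factor.

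The 3 factors of progenitor commitment, Ebf1, Ebf2 and Zfp423, were higher on the cΔex3-labelled arrays, and the late factor Klf15 and the early factor Cebpb were lower. Cebpa and Cebpd overlapped between the groups. Of the 7 factors, 3 were past limma's threshold as higher and 2 as lower. Of all genes tested, 24% were past it as higher and 29% as lower, 53.1% together. Groups without overlap were seen for 3 factors that were higher and 2 that were lower, beside 26.1% and 32.6% of all genes and 58.7% in either direction. Zfp423 is counted by the probe brightest over all arrays, a choice that leans on the cΔex3-labelled arrays, as given below. Over all 18030 genes the median difference was -0.08, with 10th and 90th percentiles of -1.88 and 2.55. Since the factors were picked from this contrast, nothing is read from these counts.

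**Figure D2:**
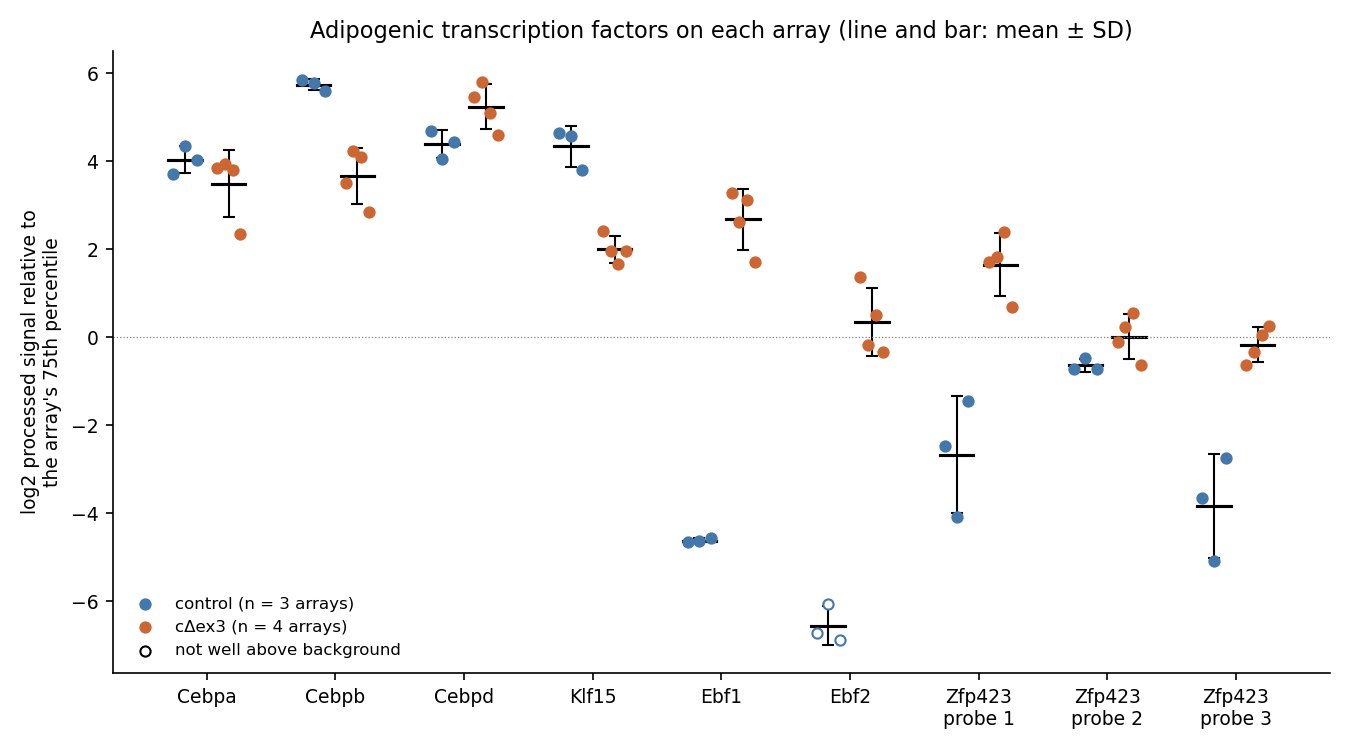
Level of each probe of the 7 factors on each array (log2 processed signal relative to the array's 75th percentile; points are arrays, lines and bars the mean ± SD of 3 control-labelled or 4 cΔex3-labelled arrays, open points not well above background). Ebf1 and Ebf2 sit at -4.56 or below on every control-labelled array and at -0.34 or above on every cΔex3-labelled array, Cebpb and Klf15 sit higher on the control-labelled arrays, and the second Zfp423 probe overlaps between groups.

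Ebf1, a helix-loop-helix factor first known from B lymphocytes and needed for white adipocytes, had levels of -4.67, -4.64 and -4.56 on control-labelled arrays 1 to 3. On cΔex3-labelled arrays 1 to 4 its levels were 3.26, 2.60, 3.11 and 1.71. Every control-labelled array was low and nearly equal, every cΔex3-labelled array was high, and the nearest arrays of the groups were 6.28 apart. The mean was -4.63 ± 0.06 (SD, n = 3) against 2.67 ± 0.70 (SD, n = 4), a difference of 7.30 or 157-fold. The probe was well above background on all 7 arrays, with a processed signal of 29.98 to 38.3 in the control-labelled group and 7075 to 17841 in the other. Its difference lay at percentile 99.6 of those of all genes.

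Ebf1 also marks B lymphocytes, so the B lymphocyte markers are given beside it. The sum of 8 such markers was 3.20 to 5.07 on the control-labelled arrays and 3.52 to 8.00 on the cΔex3-labelled arrays, with limma calling 2 lower and the other 6 not past the threshold. Without cΔex3-labelled array 4, 3 of the 8 were called higher.

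Ebf2, the EBF factor that selects brown and beige fat precursors, was not well above background on any control-labelled array, where its measured levels were -6.72, -6.06 and -6.89. On cΔex3-labelled arrays 1 to 4 it was 1.37, -0.18, 0.51 and -0.34, well above background on 4 of 4. All cΔex3-labelled arrays lay above all control-labelled arrays, by 5.72 at the nearest as measured. That gap is taken against a control-labelled value not well above background, so that its size is not settled. A dim gene has only a bound, taken against the higher of the probe's own signal and the lowest signal well above background on each control-labelled array. By this bound Ebf2 was at least 65.6-fold higher in the cΔex3-labelled group, from measured means of -6.56 ± 0.44 (SD, n = 3) and 0.34 ± 0.78 (SD, n = 4).

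Within an array, Ebf1 minus Ebf2 was 1.90 to 2.78 on the cΔex3-labelled arrays. Whether Ebf1 and Ebf2 differed by like amounts between the groups cannot be read, since Ebf2 has only a bound.

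Zfp423, a multi-zinc-finger protein that marks committed preadipocytes and sensitises them to BMP signals, was the only factor with several probes. The probe that stood for it, brightest by the mean over all arrays, was A_55_P2102335. It read -2.48, -4.08 and -1.45 in the control-labelled group, against 1.71, 1.81, 2.38 and 0.68 on the cΔex3-labelled arrays. The groups did not overlap, with a gap of 2.13. The means were -2.67 ± 1.33 (SD, n = 3) and 1.65 ± 0.71 (SD, n = 4), so that it was 4.32 or 19.96-fold higher in the cΔex3-labelled group.

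A second Zfp423 probe (A_55_P2148921) gave -3.67, -5.10 and -2.75 against -0.63, -0.34, 0.04 and 0.24, a difference of 3.67 or 12.7-fold without overlap. The third (A_51_P328442) gave -0.72, -0.47 and -0.72 against -0.11, 0.24, 0.55 and -0.63. That probe differed by 0.65 and its groups overlapped, because cΔex3-labelled array 4 fell among the controls. On the control-labelled arrays it was the brightest, with a mean of -0.64 against -2.67 for A_55_P2102335. The latter ranked first only through its levels on the cΔex3-labelled arrays, so that the choice of probe favours a large difference. The 4.32 and the count of Zfp423 among factors without overlap rest on that choice. All 3 probes are annotated to the same Zfp423 transcript and the mean over them was 2.88 higher, so that the size of the Zfp423 difference depends on the probe. The first and second probes ranked the control-labelled arrays alike, with array 3 highest and array 2 lowest.

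Klf15, a Krüppel-like factor induced by glucocorticoids and fasting that raises Slc2a4 in adipocytes and amino acid breakdown in liver, was at 4.63, 4.58 and 3.80 on the control-labelled arrays. Its levels on the cΔex3-labelled arrays were 2.40, 1.96, 1.66 and 1.95. All of the latter lay below all of the former, with a gap of 1.40. The means were 4.34 ± 0.47 (SD, n = 3) and 1.99 ± 0.31 (SD, n = 4), a difference of -2.35, which is 5.08-fold lower. The processed signal before scaling was lower too, at 5227 to 9819 against 12623 to 18873.

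Cebpb, the C/EBP factor that hormonal inducers switch on first and that also answers interleukin-6 in liver, was at 5.83, 5.78 and 5.59 on the control-labelled arrays. On the cΔex3-labelled arrays it was at 3.51, 4.23, 4.10 and 2.84. The control-labelled arrays lay within 0.24 of each other and above every cΔex3-labelled array, with a gap of 1.36. The means of 5.74 ± 0.13 (SD, n = 3) and 3.67 ± 0.64 (SD, n = 4) differed by -2.07, which is 4.19-fold lower. The processed signal was 41591 to 43716 against 15415 to 28484, so that this order also held without scaling.

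Cebpd, the other early C/EBP factor, was at 4.67, 4.04 and 4.43 in the control-labelled group, against 5.46, 5.81, 5.09 and 4.60 on the cΔex3-labelled arrays. The 3 highest levels were cΔex3-labelled, and array 4 of that group fell just below control-labelled array 1. The means were 4.38 ± 0.32 (SD, n = 3) and 5.24 ± 0.52 (SD, n = 4), a difference of 0.86. Without scaling, the processed signal did not overlap between groups, at 12465 to 19494 against 52356 to 81676. The cΔex3-labelled arrays were brighter as a whole, with 75th percentiles of 1348 to 2160 against 756 to 907, and the unscaled gap includes this. The difference was 1.54 after quantile normalisation and 1.07 without cΔex3-labelled array 4.

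Cebpa, which drives the terminal programme of adipocytes and is also a main factor of hepatocytes, was at 3.72, 4.34 and 4.03 on the control-labelled arrays. It was at 3.84, 3.94, 3.80 and 2.34 on the cΔex3-labelled arrays. Apart from array 4, the cΔex3-labelled arrays lay within the range of the controls. The means of 4.03 ± 0.31 (SD, n = 3) and 3.48 ± 0.76 (SD, n = 4) differed by -0.55, which became -0.17 without array 4. Its difference was -0.94 to -0.03 over the 22 alternative settings. Without scaling, its mean processed signal was higher on the brighter cΔex3-labelled arrays, at 20315 against 13406, so that its direction depends on scaling.

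The 3 C/EBP genes thus did not shift together, which ratios within an array show without any scaling between arrays. Cebpb minus Cebpd was 1.16 to 1.74 on the control-labelled arrays and -1.95 to -0.99 on the cΔex3-labelled arrays, a shift of -2.93 with a gap of 2.15. Cebpa minus Cebpb shifted by 1.52, with no overlap between groups (gap 0.94). Cebpa minus Cebpd shifted the other way, by -1.41, with a gap of 0.33. Such ratios show unequal change and not which gene changed.

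The lower pair shifted alike within the spread. Cebpb minus Klf15 lay between 1.202 and 1.79 on the control-labelled arrays and between 0.89 and 2.44 in the other group, a shift of 0.28 with overlap. Cebpd and Klf15, both targets of the glucocorticoid receptor in other settings, parted by 3.20 with a gap of 2.03. The glucocorticoid receptor gene Nr3c1 itself differed by -0.21 (SE 0.27, limma adjusted p = 0.546).

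**Figure D3:**
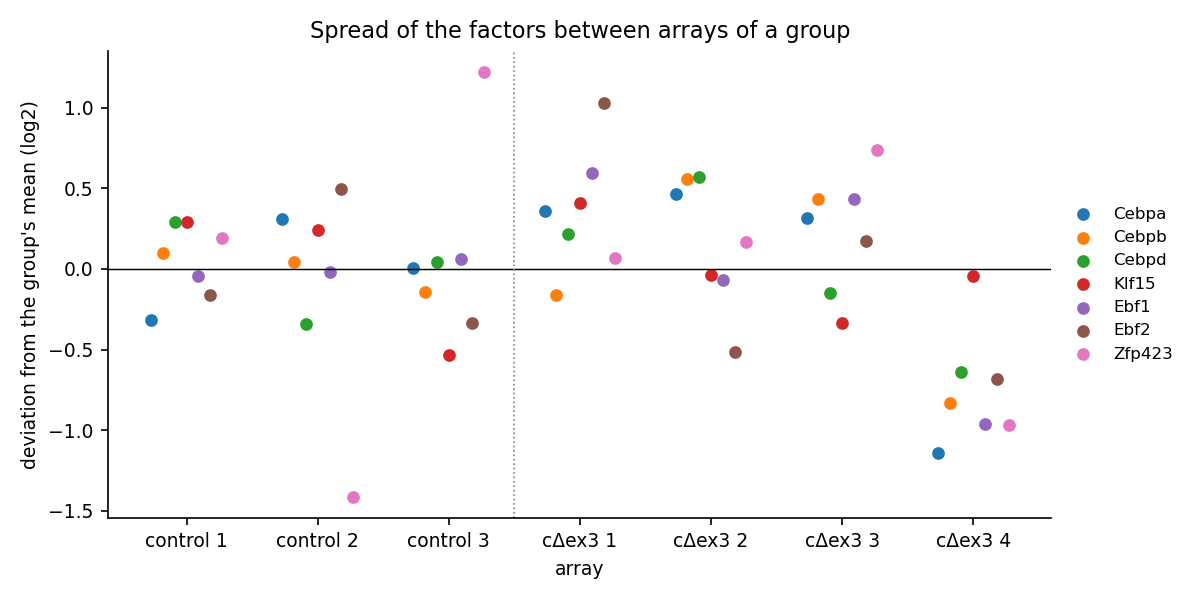
Deviation of each factor from its group's mean on each array (log2; each colour is 1 factor, represented by its brightest probe; the dotted line separates the groups). On cΔex3-labelled array 4 all factors except Klf15 lie 0.64 to 1.14 below their mean, and Zfp423 spreads most among the control-labelled arrays.

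Within the cΔex3-labelled group, array 4 was the lowest for 6 of 7 factors, all but Klf15, with Zfp423 taken by its brightest probe. The Zfp423 probe A_51_P328442 was also lowest there, whereas A_55_P2148921 was highest there, at 0.24. Array 4 deviated from the group's mean by -1.14 for Cebpa, -0.96 for Ebf1, -0.97 for Zfp423 and -0.04 for Klf15. The mature adipocyte marker sum was also lowest there, at 935 against 1584 to 2026 on arrays 1 to 3, and so was the adipocyte progenitor sum, at 76.0 against 133 to 155. The low sums were not limited to fat cells. Endothelium (62.5 against 98.1 to 118), mesothelium (14.6 against 21.4 to 40.5), macrophage (72.5 against 113 to 118) and B lymphocyte sums (3.52 against 6.75 to 8.00) were lowest there too. Keratinocyte markers (12.3 against 5.05 to 6.44), dermal papilla markers (14.7 against 2.70 to 3.42) and skeletal muscle markers (2.22 against 1.15 to 2.04) were highest on that array. Sox2 of the dermal papilla list was not well above background on any array, and Myh4 of the skeletal muscle list on no cΔex3-labelled array. Hepatocyte, dermal sheath and pericyte sums were neither lowest nor highest there. The part of these cell types in the lower factor levels was not tested.

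Among the control-labelled arrays, array 3 was lowest for Klf15 and was highest by 2 of the 3 Zfp423 probes. By the third, A_51_P328442, arrays 1 and 3 were equal at -0.72, below array 2. The same array had the highest mature adipocyte sum, 89.0 against 13.2 and 14.3, the highest adipocyte progenitor sum, 37.1 against 18.1 and 24.6, and the lowest hepatocyte sum, 4223 against 5167 and 5518. Single adipocyte markers, named after their values were seen, did not all follow the sum. Adipoq was lowest on array 3, at -5.12 against -4.52 and -1.95, and so was Retn, at -3.04 against -2.61 and -1.93. Plin1 lay between the other controls there, at -4.94, and Fabp4 was highest, at 2.86 against 2.63 and 2.09. Pparg was at 3.11 on array 3 against 1.90 and 1.91 on arrays 1 and 2. Ebf1 was also highest on array 3, by a small amount, at -4.56 against -4.67 and -4.64. Cebpb was lowest there, at 5.59 against 5.83 and 5.78. So was Ebf2, at -6.89 against -6.72 and -6.06, with none of these values well above background. Cebpa (4.03) and Cebpd (4.43) lay between the other controls on array 3. The part of cell types in the values of array 3 was not tested.

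Per the file headers, slide row 1 held control-labelled arrays 1 and 2 and cΔex3-labelled array 1, and row 2 held the rest, which is control-labelled array 3 and cΔex3-labelled arrays 2, 3 and 4. Every factor kept its direction in both rows. By the positions in the deposited names each group lies in a row of its own, and the row and the group then cannot be told apart. The values that follow hold only if the headers are right. Ebf1 differed by 7.92 in row 1 and 7.04 in row 2, and Zfp423 by 5.00 and 3.08. Ebf2, with only a bound, is not given by row. Klf15 differed by -2.20 and -1.95, and Cebpb by -2.30 and -1.87. Cebpd differed by 1.099 and 0.74 and Cebpa by -0.19 and -0.67. With the row as a block the differences were 7.45 for Ebf1, 3.98 for Zfp423, -2.07 for Klf15, -2.07 for Cebpb, 0.91 for Cebpd and -0.45 for Cebpa.

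**Figure D4:**
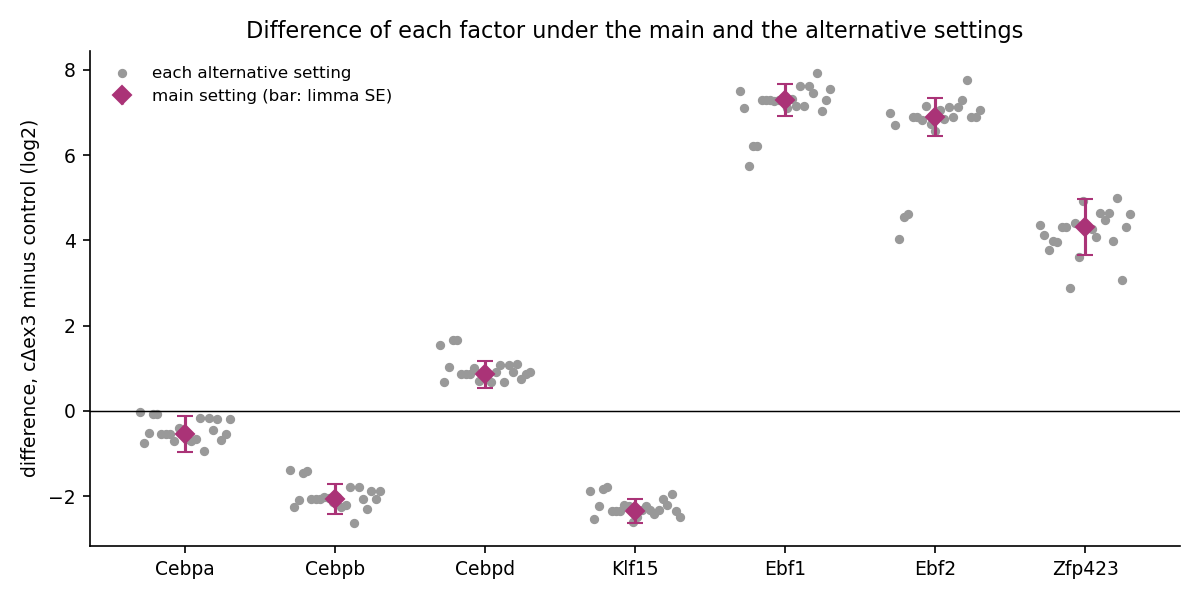
Difference of each factor, cΔex3-labelled minus control-labelled (log2), as reported (diamond, bar the limma standard error) and under each of the 22 alternative settings (grey points; 21 for Ebf2, whose fitted values rest on dim control-labelled signals and are no bound). No factor changes sign, Cebpa reaches -0.03, and the low points of Ebf1 and Ebf2 come from normexp background correction and from the deposited values.

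The other genes of the pathway were taken from 6 lists chosen by their known roles, 102 genes in all, each tested with limma over all 18030 genes. Of these, 46 rose and 23 fell in the cΔex3-labelled group, where 24% and 29% of all genes did. These lists were drawn up with earlier results of these data known, and some of their genes are also among the cell type markers.

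The list of 19 other transcription factors that promote adipogenesis had 7 that rose and 4 that fell, with a median difference of -0.29 beside -0.08 over all genes. Pparg, the nuclear receptor at the centre of adipogenesis, was at 1.90, 1.91 and 3.11 against 5.07, 5.37, 5.51 and 3.72, without overlap. It rose by 2.61 (SE 0.52, limma adjusted p = 0.00514). Its heterodimer partner Rxra fell by 2.24 (SE 0.24, limma adjusted p = 0.00034) by its brightest probe and differed by -1.42 by the other. Klf4, an immediate early inducer of Cebpb, rose by 4.12 (SE 0.29, limma adjusted p = 6.24e-05), while Cebpb was lower.

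Prdm16, the partner of EBF2 and C/EBPβ in brown fat, rose by 2.79 (SE 0.30, limma adjusted p = 0.000392). Med1, the Mediator subunit that docks to nuclear receptors, fell by 3.99 on its brightest probe, but its other 3 probes differed by 0.13, -0.21 and -0.83, so that Med1 has no settled difference here. The other genes of this list past the threshold as lower, named after their values were seen, were Rora (difference -1.35) and Ppargc1a (difference -1.34), coactivators or receptors of oxidative metabolism.

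Regulators that hold adipogenesis back were called more often as higher than as lower: 9 of 17 rose and 1 fell, with a median of 1.34 beside -0.08 over all genes. Gata2, which keeps preadipocytes undifferentiated, rose by 2.87 (SE 0.21, limma adjusted p = 7.89e-05). Twist1 and Foxc2, mesenchymal factors that restrain or redirect fat cell genes, rose by 3.97 (SE 0.34, limma adjusted p = 0.000143) and 3.75 (SE 0.37, limma adjusted p = 0.000272). The hepatocyte factor Foxa2, also known to restrain preadipocytes, fell by 9.26 (SE 0.39, limma adjusted p = 1.06e-05).

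Among 22 paralogues of the factors, 9 rose and 5 fell, with a median of 0.12. Ebf3, another EBF factor of mesenchyme, was at -5.43, -6.08 and -6.59 on the control-labelled arrays, well above background on 1 of 3. On the cΔex3-labelled arrays it was at 1.91, 1.57, 2.33 and 0.57. It rose by 7.63 (SE 0.47, limma adjusted p = 3.72e-05), whereas Ebf4 differed by -0.52 (SE 0.54, limma adjusted p = 0.445).

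Zfp521, the close relative that binds EBF1 and opposes Zfp423, rose by 3.54 (SE 0.38, limma adjusted p = 0.000377). It was named after its value was seen. Within the C/EBP family, Cebpe, a granulocyte factor, fell by 5.24 (SE 0.30, limma adjusted p = 2.87e-05). Cebpg differed by 0.11 (SE 0.36, limma adjusted p = 0.812) and Ddit3 by 0.41 (SE 0.30, limma adjusted p = 0.282).

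Of the KLF relatives of Klf15, Klf8 was not well above background on the control-labelled arrays and was at least 10.69-fold higher in the cΔex3-labelled group. Klf9, which like Klf15 responds to glucocorticoids, differed by -0.79 (SE 0.30, limma adjusted p = 0.0618). The paralogues that fell beside Cebpe, named after their values were seen, were Klf1, Klf12, Klf13 and Klf17.

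Extracellular signals and receptors of adipogenesis had 11 of 21 that rose and 4 that fell, with a median of 0.90. Fgf10, a growth factor of preadipocytes, was not well above background on the control-labelled arrays and was at least 117-fold higher on the others. Pdgfra, the receptor that marks fat progenitors and fibroblasts, rose by 2.48 (SE 0.23, limma adjusted p = 0.000191). Bmp4, a commitment signal, rose by 2.78 (SE 0.28, limma adjusted p = 0.000302) and the noncanonical ligand Wnt5a by 2.94 (SE 0.19, limma adjusted p = 4.71e-05). The 4 that fell, named after their values were seen, were Igf1, Bmp2, Lifr and Il6ra. The last is a receptor of the interleukin-6 signal that induces Cebpb in liver.

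Of 21 adipocyte targets of C/EBPα and PPARγ, 14 rose and 2 fell, with a median of 5.06. Plin1, Retn, Fabp4, Adipoq, Slc2a4, Lep, Cfd and Cidec, all of which rose, are also among the mature adipocyte markers above. They are named for that reason, and the count is no result separate from those markers. Plin1, the lipid droplet coat protein, rose by 10.02 (SE 0.40, limma adjusted p = 9.3e-06) and the adipokine gene Retn by 10.01 (SE 0.41, limma adjusted p = 9.73e-06). Fabp4, the fatty acid carrier of adipocytes, rose by 5.66 (SE 0.30, limma adjusted p = 2.24e-05). Acvr1c, an activin receptor of fat, was not well above background on the control-labelled arrays and was at least 575-fold higher on the others. The 2 that fell were Acsl1 and Pck1, named after their values were seen, which liver also expresses. Neither was past the threshold after quantile normalisation, with or without normexp, or in the deposited values. The count of 2 became 1 without control-labelled array 1 or 2 and 4 without cΔex3-labelled array 3.

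The level of Cebpa is set beside these targets. It lay within the control range on 3 of 4 cΔex3-labelled arrays, while Plin1 was at -5.14, -4.16 and -4.94 against 5.44, 5.59, 5.68 and 4.36. The summed hepatocyte and adipocyte markers moved in opposite directions between the same groups, and their part in the level of Cebpa was not tested.

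The 10 genes of amino acid catabolism that are linked to KLF15 had 7 that fell and 1 that rose, with a median of -1.14. Tat, the tyrosine aminotransferase of liver, was at 6.31, 6.14 and 4.71 against -1.51, -0.68, -1.16 and -0.85, and fell by 6.77 (SE 0.42, limma adjusted p = 4.13e-05). Prodh, a proline oxidase known as a KLF15 target, fell by 3.08 (SE 0.50, limma adjusted p = 0.00225) and Bckdha, a subunit that oxidises branched-chain keto acids, by 1.69 (SE 0.32, limma adjusted p = 0.0045). Bcat2, the branched-chain aminotransferase of tissues other than liver, rose by 2.19 (SE 0.30, limma adjusted p = 0.00109). All 14 hepatocyte markers were lower in the same group, and their part in these genes was not tested.

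**Figure D5:**
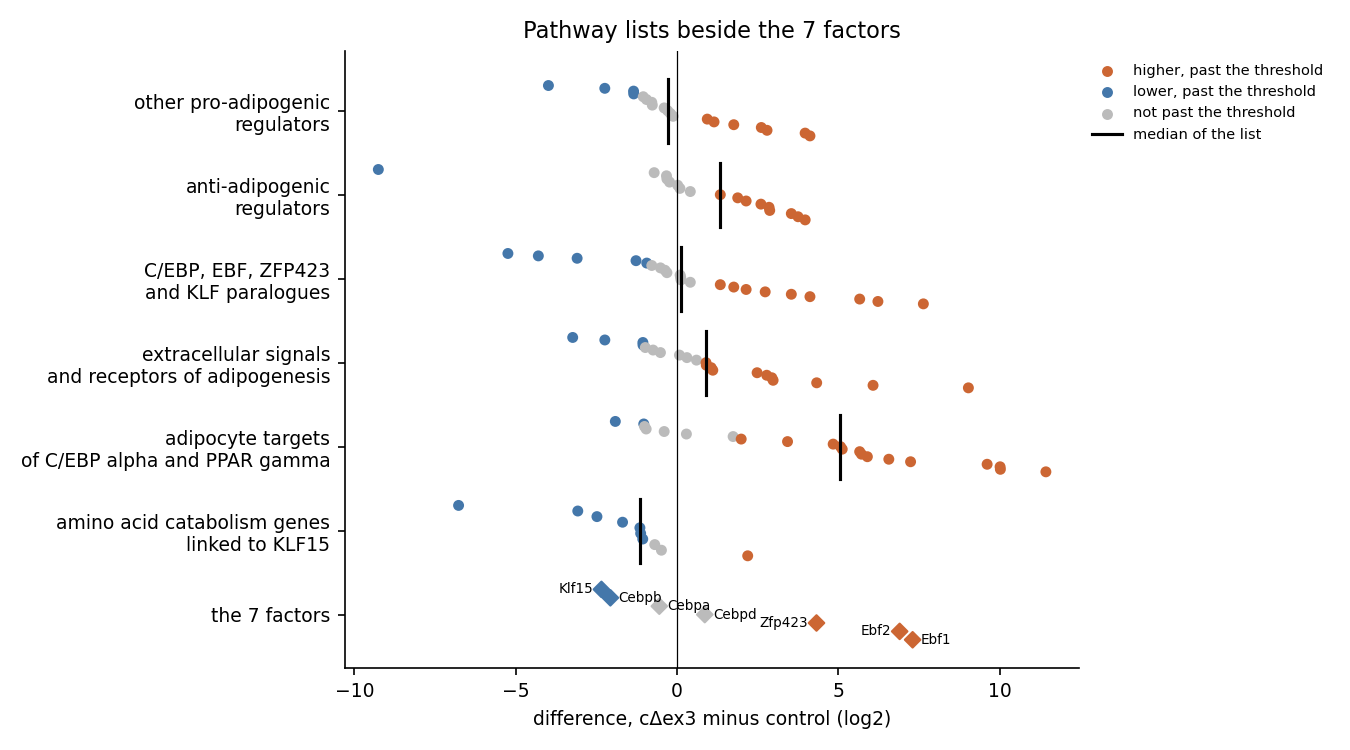
Difference of every gene of the 6 pathway lists and of the 7 factors, cΔex3-labelled minus control-labelled (log2; orange past the threshold as higher, blue as lower, grey not past; black bars are list medians; diamonds are the factors). The adipocyte targets have the highest median, 5.06, the amino acid catabolism genes have the lowest, -1.14, and the factors spread from -2.35 to 7.30.

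Taking rows from the headers, 16 pathway genes were past the threshold as higher and 5 as lower in slide row 2 alone, which has 1 control-labelled array. In row 1, with 1 cΔex3-labelled array, the counts were 40 and 21. In each row the lone array is assumed to vary like those of the other group. Pparg differed by 1.75 in row 2 (limma adjusted p = 0.300), where the only control-labelled array is the one with the highest adipocyte marker sum. Of the other named genes, Rxra, Prdm16, Twist1, Pdgfra, Bmp4, Bcat2, Prodh, Bckdha, Axin2 and Lef1 also were not past the threshold in that row, and all kept their direction. The differences of Bmp4 (2.95) and Bckdha (-1.76) were larger in size in row 2 than over all arrays. Those of Rxra (-2.12), Prodh (-3.03), Prdm16 (2.02), Twist1 (3.33), Pdgfra (2.12), Bcat2 (1.94), Axin2 (0.65) and Lef1 (1.41) were smaller in size there.

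The genes most like each factor were ranked by Pearson's r of the log2 levels over the 7 arrays among 18021 other genes, as a description: the arrays form 2 groups, and any gene that differs between them in the same way has a high r. For Ebf1 they were Sox8, Tshr and Zdhhc8, each with an r of 0.999, and Ebf2 ranked 126 with an r of 0.994. For Ebf2 they were Mmrn1 (0.999), Acvr1c (0.999) and Cytl1 (0.998), and Ebf1 ranked 29. Every r of Ebf2 includes its dim control-labelled values, and Acvr1c was dim on those arrays too. For Zfp423 they were Gtf3c5 (0.998), Ccl11 (0.997) and Map4k1 (0.997). Gtf3c5 differed between groups by only 0.35, so that a high r says nothing about size.

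For Cebpb the nearest genes were Ndufs4 (0.999), Mrpl39 (0.999) and Nadk (0.998), of which the first encodes a subunit of respiratory complex I and the second a mitochondrial ribosomal protein. For Klf15 they were Gm4850 (0.995), Olfr955 (0.995) and Clcn2 (0.995), and Cebpb ranked 3489 with an r of 0.883. Cebpa was closest to 4930402H24Rik (0.978), Cmip (0.973) and Ccdc22 (0.969), and Cebpd to 2310022A10Rik (0.989), Klrb1c (0.983) and Sptlc2 (0.983). No factor was among the 3 nearest genes of another.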

How the data were processed

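RNA of the 7 samples was amplified linearly, labelled with Cy3 and hybridised to 1 slide of Agilent mouse arrays, per the labels' protocols. Per the file headers, scanning software was Agilent Feature Extraction 10.7.1.1. The processed signal used here is an intensity that is background-subtracted and detrended within the array, per the file headers, and not scaled between arrays. Deposited flags of 0 or 1 marked saturated spots, outlier spots and spots well above background. A table of log2 values of all arrays came from the authors too. How those were made is not given in the sources used here: their medians are 7.52 to 7.53, they correlated at 0.9999 to 1.0 with normexp and quantile normalised values of the same arrays, and the background offset is unknown, so that they served as an alternative.

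From the processed signal, log2 values minus each array's 75th percentile over non-control spots were computed, with outlier spots left out and spots of a probe averaged. Probes were named by accession through a RefSeq table on GRCm38.p6 (28026 of 55681 named). Probe and gene coordinates are left out, since the arrays were annotated on a different build. The promoter windows have their own coordinates, from the RefSeq table. Named probes were tested where at least 3 arrays had them well above background, and the probe with the highest mean stood for its gene. The groups, taken from the sample titles, were compared with limma 3.58.1 in R 4.3.3 (lmFit and eBayes, two-sided, no covariate, Benjamini-Hochberg adjustment, threshold 0.05). All adjusted p-values come from limma. Samples are labelled biological replicates, so that their spread includes that between mice, apart from pooled ones. The fit was also run on simulated data in which few genes changed and both groups had the same spread. In the real data 53.1% of genes were called, so that the simulated run lends these calls no support.

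The factors, the gene lists and the markers were chosen with earlier results of these data known. Named beside the factors are Ctnnb1, Pparg, Axin2 and Lef1. So are the 4 genes of smallest p in each list and the 3 nearest genes by Pearson's r. Others are marked in the text or are Cd34, Alpl, Itga8, Nr3c1, Ebf4, Cebpg, Ddit3 and Klf9. These too were named after their values were seen. Of 192 list genes, 192 matched a gene name. Alternatives covered background correction, normalisation, the dim filter, probe choice, left-out arrays, pooled mice, replicate number, slide row and variance model. The planned normexp setting used the median in place of the mean spot intensity. Slide positions come from the headers. Those in the deposited names differ, and by them each slide row holds a single group, so that results by row rest on the headers.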

Additional observations from a re-analysis of the deposited data

Results flagged for a closer look

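Cebpa on cΔex3-labelled array 4 stood apart from the other arrays of its group: the gap to the next array was 0.91 of the group's range (0.91026), above Dixon's critical value for 4 arrays. Its level was 2.34 there and 3.80 to 3.94 on the other arrays. Of the 9 probes looked at, 1 was above the critical value, and chance alone marks about 1 in 20 groups.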

How the results depend on the processing

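Over 22 alternative settings (21 for Ebf2) no factor changed sign. The difference ranged from 5.74 to 7.92 for Ebf1, from 2.88 to 5.00 for Zfp423, from -2.64 to -1.38 for Cebpb and from -2.61 to -1.79 for Klf15. Ebf2 has only a bound, so that its fitted range is not given. Since the factors were picked from this contrast, their calls say nothing about stability. Slide row 2 by the headers, with 1 control-labelled array, left 525 genes higher and 715 lower, 0 factors lower, and 16 pathway genes higher and 5 lower. In it Cebpb differed by -1.87 and Klf15 by -1.95. The median difference of the 7 factors, 0.86 as reported, is that of Cebpd, and was 1.54 after quantile normalisation, 1.66 with normexp and quantile normalisation, 1.67 in the deposited values and 0.15 for factors well above background on all 7 arrays, where Ebf2 drops out. Leaving out single arrays moved Cebpa between -0.71 and -0.17 and Cebpd between 0.67 and 1.07. Ctnnb1 reversed to 0.52 with normexp and quantile normalisation (limma adjusted p = 0.0239) and to 0.52 in the deposited values (limma adjusted p = 0.0251). The cause was not tested. Quantile normalisation moved the median of all genes to 0.13, median centring to -0.27, normexp with the 75th percentile to -0.22 and the deposited values to 0.11. The share of calls that were higher was 45.3% as reported, 54.5% after quantile normalisation and 35.7% with normexp and the 75th percentile.

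The deviations of same-numbered arrays correlated at r of -0.01, -0.001 and 0.02. Those of differently numbered arrays correlated at -0.09 to 0.09. These values show no pairing by number, and so few pairs cannot exclude it. With the replicate number as a block, 4493 genes were higher and 4980 lower, and 4 factors were called higher, Cebpd among them at 1.07. Replicate number 4 exists only in the cΔex3-labelled group, so that this block takes up array 4. The factors' differences were therefore the same as without that array.

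Probes near background limit what Ebf2, Ebf3 and Klf8 show on the control-labelled arrays, where only bounds or partial measurements exist. The arrays number 3 and 4, and cell types, which differ between the groups, cannot be told apart from the labelled condition.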
